A study of Mus musculus with 8 samples.

Results

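The 33 genes described here encode proteins of the synaptic vesicle and of the machinery that docks the vesicle, primes it and releases its contents. They were taken by gene symbol from the deposited count table, as synaptotagmins, SNARE proteins and complexins, synapsins and vesicle membrane proteins, vesicular transmitter transporters, Rab3 and active zone proteins, and granins with gamma-synuclein. All 33 were found among the 57180 genes of the table, and all 33 were among the 14730 genes that reached 5 counts in 4 or more of the libraries and so were tested. A neuron loads transmitter into small vesicles, and the SNARE proteins of vesicle and cell membrane zip together to fuse them when calcium enters the terminal. Synaptotagmins sense the calcium, complexins hold the SNARE complex in check, and large scaffold proteins mark the active zone where vesicles dock. In the embryonic retina few synapses have formed, and the first neurons, the retinal ganglion cells (RGCs), are known to make many of these proteins while their axons grow.

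Isolated retinas of 4 Rax-SmoCKO and 4 control samples were used for 3′-Tag-Seq, whose reads come from the 3′ end of a transcript. Both groups carried the conditional Smo CKO/CKO alleles, and the Rax-SmoCKO samples also carried Rax-Cre, so that loss of Smo, the membrane protein through which Shh acts on a cell, and the presence of the transgene cannot be told apart. Rax-Cre is a BAC transgene that acts before the retina forms, so that Cre is not limited to 1 retinal cell type and also reaches non-retinal tissues of the eye. The age is taken as E13.5, the stage named in the study. The sample labels instead carry a day that climbs by 1 with each sample, 13 for control replicate 1 and 20 for Rax-SmoCKO replicate 4, and if these were ages they could not be told apart from genotype. The methods give 5 Rax-SmoCKO samples, of which 4 were analysed here. Neither labels nor methods say if each library was 1 embryo or a pool, so the p-values measure the spread between these samples, which may be technical.

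Totals were 3026843 to 4615667 counts in Rax-SmoCKO and 3017480 to 4328567 in control libraries. Levels below are CPM, in which counts are scaled to a common library size after adjustment by the trimmed mean of M values (TMM), and because the tags do not grow in number with transcript length, CPM were compared between genes without dividing by length. Smo had 2.84 to 4.95 CPM in Rax-SmoCKO, against 16.3 to 23.8 in control libraries, and its target Gli1 0.711 to 4.09 in Rax-SmoCKO, against 11.7 to 27.9 in control, so both followed the labels, although it is not known here whether the tags of Smo lie in its deleted part. The marker lists of retinal progenitors and of RGCs were both abundant, at 9584 to 10202 and 7903 to 11089 summed CPM in Rax-SmoCKO, against 11070 to 11533 and 7033 to 8302 in control. Control replicate 2 held 18226 CPM of lens genes, against 432.4 in Rax-SmoCKO replicate 2 and at most 72.3 elsewhere. Rax-SmoCKO replicates 2 and 3 were the 2 libraries with more than 1 Y-linked CPM (243.2 and 240.4). Control libraries had at most 0.255, so male tissue was seen in Rax-SmoCKO alone. Sex is thus partly confounded with genotype, and the main fit holds no term for it. Rax-SmoCKO replicate 4 stood apart for the vesicle genes themselves, as described next.

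The vesicle and release genes leaned higher in Rax-SmoCKO retinas, by amounts that were small for each gene. Of the 33, 28 had a log2 fold change above 0 (84.8%), against 50.04% of all genes tested, and the median was 0.27 against 0.00. None of the 33 passed an adjusted p under 0.05 in edgeR's quasi-likelihood test, a threshold passed by 0.095% of all genes tested. In DESeq2 0 members passed it, beside 57 of all 14730 genes tested, and by limma-voom 0, beside 16. Without adjustment, edgeR gave p under 0.05 for 7 members on the higher side, where 4.89% of all genes tested stood, and for 1 on the lower side, where 4.61% stood. The 7 became 2 without Rax-SmoCKO replicate 4 and 4 without control replicate 3, and 12 and 13 without Rax-SmoCKO replicates 1 and 2. The share of all genes at that p was not counted with libraries left out. DESeq2 had 8 members higher at that level, where 512 of all 14730 genes tested stood, and limma-voom 5, where 659 stood. The 4 Rax-SmoCKO values lay above all 4 control values for Sv2c, Rab3c and Bsn, or 9.09% of the members, where 2.7% of all genes tested did so, and for 0 members did they lie below, where 2.99% did. Counted in either direction, the 3 became 7 without Rax-SmoCKO replicate 1, 6 without control replicate 3 and 5 without control replicate 4. The 6 include Syn2, whose Rax-SmoCKO values lay below the remaining control values. Groups separate more easily with fewer libraries, and the shares of all genes were not counted for these fits. Genes of 1 pathway are not independent of each other, and these shares describe the members without testing them as a set. The members were also chosen with earlier results of these data known, so the contrast with all genes is a description only.

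Rax-SmoCKO replicate 4 was the highest of the 8 libraries for 27 of the 33 genes (81.8%), whereas it was highest for 17.9% of all genes tested. In that library the median member lay 0.52 above the mean of the control libraries on the log2(CPM + 1) scale. The medians of Rax-SmoCKO replicates 1, 2 and 3 were 0.067, 0.11 and 0.25, and those of control replicates 1 to 4 were -0.016, -0.0041, -0.12 and 0.095. The medians of Rax-SmoCKO replicates 2, 3 and 4 thus lay above all control medians, and that of replicate 1 lay below control replicate 4. Without Rax-SmoCKO replicate 4, 26 of the 33 fold changes were above 0, the median was 0.13, and Sv2c and Bsn were the 2 genes on the higher side whose unadjusted edgeR p was under 0.05.

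**Figure D1:**
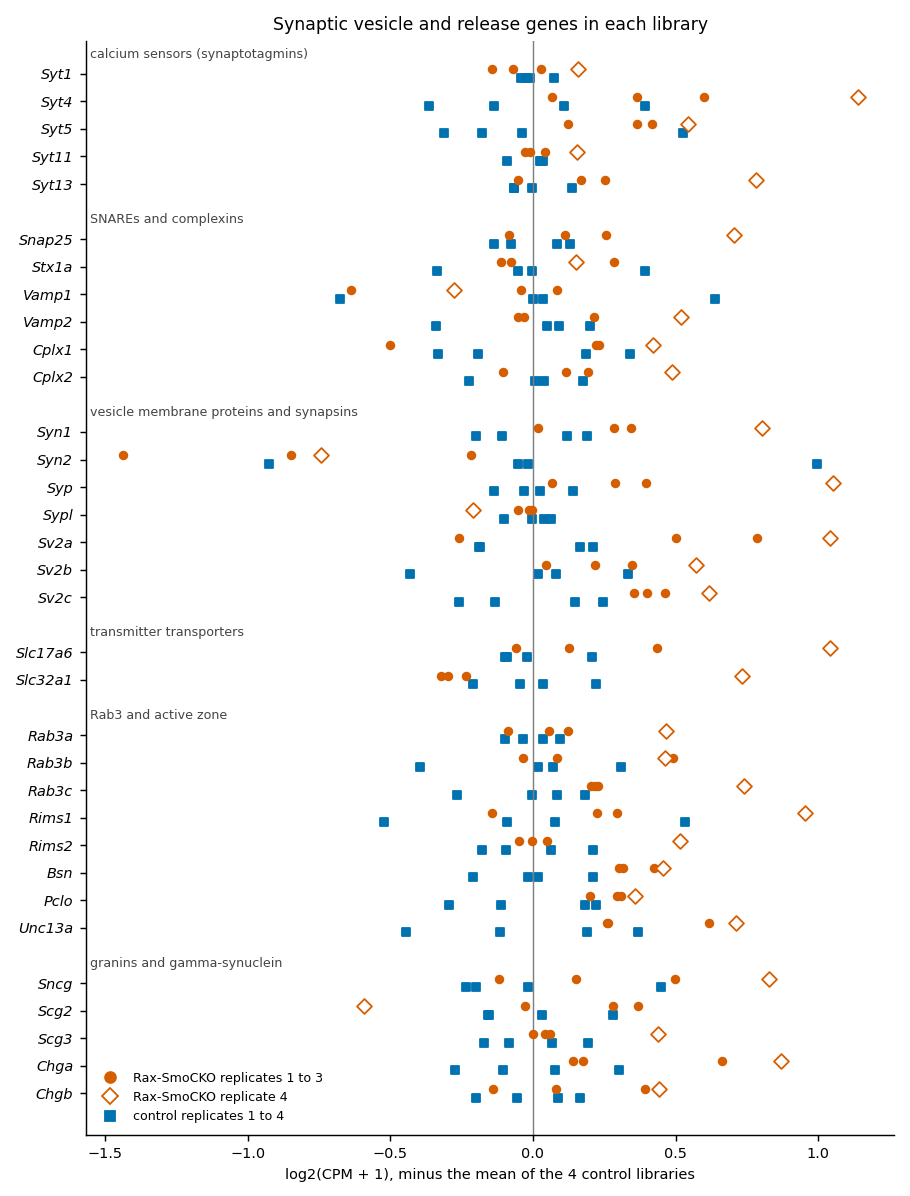
Level of each of the 33 genes in each library, as log2(CPM + 1) minus the mean of the 4 control libraries (x axis), with genes on the y axis by subgroup. Circles are Rax-SmoCKO replicates 1 to 3, open diamonds Rax-SmoCKO replicate 4 and squares the 4 control libraries. The open diamond is the rightmost symbol for 27 of the 33 genes.

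The member with the highest level was Syt11, and the range of levels over the 33 genes was wide. Averaged over the 8 libraries, Syt11 had 386.9 CPM and Syn2, the lowest, 1.87 CPM. In all, 11 members had a mean over 50 CPM, 11 had 10 to 50 CPM and 11 were under 10 CPM. The least abundant members therefore rest on few counts, 1 to 24 per library for Syn2 and 4 to 17 for Vamp1.

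The start regions of these genes were searched for the binding motif of CREB, the cAMP response element TGACGTCA, which reads the same on both strands and is known from promoters of granin genes, and for a core of the RE1 element, on both strands, through which the repressor REST keeps neuronal genes silent outside neurons. Windows from 250 bases before to 50 bases after each start were available from RefSeq (GRCm38.p6) for 27 of the 33 genes, 35 windows in all. The cAMP element was present in 3 of the 35 windows (8.57%), against 588 of 32851 windows of all genes (1.79%). It lay 68 to 61 bases before the RefSeq start of Scg2 (secretogranin II), 72 to 65 bases before that of Chgb (chromogranin B) and 159 to 152 bases before that of Syn1 (synapsin I). By the GENCODE M21 gene bounds, the stretches of Scg2 and Chgb lie inside the gene, so these distances hold for the RefSeq starts only. The RE1 core was present in 0 of the 35 windows and in 0.0639% of all windows. With so low a share, 0 of 35 cannot show that these genes lack the element, which may also lie outside the windows. These stretches are shown because 2 granin genes share the element at nearly the same distance, in capitals below, from chr1:79440065-79440116 (minus strand) for Scg2, chr2:132781548-132781599 (plus strand) for Chgb and chrX:20921048-20921099 (minus strand) for Syn1.
Scg2: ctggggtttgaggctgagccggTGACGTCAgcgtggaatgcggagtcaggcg
Chgb: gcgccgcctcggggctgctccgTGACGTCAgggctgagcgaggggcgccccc
Syn1: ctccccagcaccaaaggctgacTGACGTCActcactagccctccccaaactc
The log2 fold changes of Scg2, Chgb and Syn1 were 0.07, 0.20 and 0.41, each with an unadjusted edgeR p over 0.05, beside a median of 0.27 for all 33. A match of letters does not show that a factor binds there.

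The synaptotagmins are vesicle proteins with C2 domains, of which Syt1 is the fast calcium sensor of release. Syt1 had 199, 189, 213 and 233 CPM in Rax-SmoCKO replicates 1 to 4, against 208, 205, 203 and 220.25 CPM in control replicates 1 to 4. The ranges overlapped, and the fitted log2 fold change of -0.00 had a standard error of 0.07 (adjusted p = 0.997 from edgeR). Syt11, which does not bind calcium and acts in membrane trafficking, had 393, 374, 379 and 425 CPM in Rax-SmoCKO, against 358, 389, 388 and 391 CPM in control. Control replicate 1 was the lowest library and Rax-SmoCKO replicate 4 the highest, and the log2 fold change was 0.04 (standard error 0.06). The 2 most abundant members thus both had values near 0.

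Syt4, a synaptotagmin of vesicles and dense core granules that is induced by activity in neurons, lies on chromosome 18 and had 55.7, 68.6, 81.0 and 118 CPM in Rax-SmoCKO, against 48.2, 57.3, 41.0 and 69.98 CPM in control. Rax-SmoCKO replicates 3 and 4 lay above all control libraries, and replicates 1 and 2 within the control range. The log2 fold change of 0.56 had a standard error of 0.21 (unadjusted p = 0.0189, adjusted p = 0.432 from edgeR), and it was 0.33 without Rax-SmoCKO replicate 4. Syt13, an atypical member that does not bind calcium, averaged 78.01 CPM in Rax-SmoCKO and 62.4 CPM in control, with 3 of 4 Rax-SmoCKO values above the whole control range (0.31, unadjusted p = 0.0516 from edgeR, and 0.13 without Rax-SmoCKO replicate 4). Syt5, a calcium sensor of dense core vesicles, averaged 22.7 CPM in Rax-SmoCKO and 17.8 CPM in control (log2 fold change 0.34). Of the 5 synaptotagmins, 4 were above 0, with a median of 0.31. An unadjusted edgeR p under 0.05 was reached by 1 of them on the higher side, where 4.89% of all genes tested stood.

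The SNARE proteins drive membrane fusion, and Snap25, anchored in the cell membrane, was the most abundant of those listed. Snap25 had 64.7, 56.3, 71.6 and 98.0 CPM in Rax-SmoCKO, against 63.4, 54.2, 56.6 and 65.5 CPM in control. Replicates 3 and 4 of Rax-SmoCKO lay above all control libraries, and the other libraries were intermixed. Its log2 fold change of 0.27 had a standard error of 0.14 (unadjusted p = 0.0831 from edgeR) and was 0.099 without Rax-SmoCKO replicate 4. Its partners were nearer 0, with log2 fold changes of 0.05 for Stx1a, the syntaxin of the cell membrane, and 0.16 for Vamp2, the main SNARE of the vesicle membrane. Vamp1, a relative of Vamp2, was at -0.41 with a standard error of 0.43, on 1.82 CPM in Rax-SmoCKO and 2.40 CPM in control. The complexins Cplx1 and Cplx2, which clamp the assembled SNARE complex, had values of 0.11 and 0.17. Without Rax-SmoCKO replicate 4 the values were -0.0027 for Cplx1, 0.066 for Cplx2 and 0.032 for Vamp2. Of these 6 genes, 5 were above 0 (median 0.13) and 0 had an unadjusted edgeR p under 0.05. Of all genes tested, 4.89% stood at that p on the higher side and 4.61% on the lower.

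The 7 vesicle membrane proteins and synapsins had a median of 0.41, with 5 above 0. Sv2a, Sv2b and Sv2c encode related transporter-like proteins of the vesicle membrane, and Sv2c had the smallest p of the 33 genes. Sv2c lies on chromosome 13 of GRCm38 from 95954594 to 96132577 and had 18.5, 20.0, 19.1 and 22.3 CPM in Rax-SmoCKO, against 12.9, 17.0, 11.7 and 15.9 CPM in control. The lowest Rax-SmoCKO library was higher than the highest control library. Any gene without overlap has the smallest two-sided exact permutation p possible with 4 and 4, 0.029, so that p adds nothing to the separation. The means were 20.0 ± 1.69 CPM in Rax-SmoCKO and 14.4 ± 2.50 CPM in control (SD, n = 4 each), and the fitted log2 ratio was 0.46 (standard error 0.15, unadjusted p = 0.00895, adjusted p = 0.362 from edgeR). The value was 0.41 without Rax-SmoCKO replicate 4, and the unadjusted p was under 0.05 in each of the 17 alternative fits.

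Sv2a, the most widely expressed of the family in brain, had 12.8, 22.4, 27.5 and 33.01 CPM in Rax-SmoCKO, against 17.5, 13.5, 13.5 and 18.1 CPM in control. Rax-SmoCKO replicate 1 was the lowest of all libraries, and the other 3 Rax-SmoCKO libraries were above the control range. The log2 fold change of 0.60 had a standard error of 0.24 (unadjusted p = 0.0284, adjusted p = 0.463 from edgeR) and was the largest positive value of the 33 genes. Sv2b averaged 20.7 CPM in Rax-SmoCKO and 16.8 CPM in control (0.29), so that all 3 family members were above 0.

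Synaptophysin, encoded by Syp on the X chromosome, is an abundant vesicle membrane protein that binds Vamp2. Syp had 13.5, 15.9, 17.2 and 27.7 CPM in Rax-SmoCKO, against 12.5, 11.6, 14.3 and 13.1 CPM in control. Replicates 2, 3 and 4 lay above all control libraries, replicate 4 by far the most. The log2 fold change of 0.51 (standard error 0.21, unadjusted p = 0.0316, adjusted p = 0.475 from edgeR) was 0.27 without Rax-SmoCKO replicate 4. Its relative Sypl, which occurs in many tissues outside neurons, had 95.7, 93.1, 96.4 and 83.4 CPM in Rax-SmoCKO, against 99.4, 101, 96.3 and 90.1 CPM in control. Rax-SmoCKO replicate 4 was the lowest library for Sypl, and the log2 fold change was -0.07 (standard error 0.07).

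The synapsins coat vesicles and tether them to the cytoskeleton. Syn1, on the X chromosome and with the cAMP element shown above, averaged 9.77 CPM in Rax-SmoCKO and 7.27 CPM in control, with a log2 fold change of 0.41 (unadjusted p = 0.0854 from edgeR), and 0.24 without Rax-SmoCKO replicate 4. Syn2 was the 1 member on the lower side with an unadjusted p under 0.05. It had 0.237, 0.860, 1.88 and 1.00 CPM in Rax-SmoCKO, against 2.31, 5.68, 0.765 and 2.23 CPM in control. Its control values spread over most of the range, and control replicate 3 was below 3 of the 4 Rax-SmoCKO libraries. The log2 fold change of -1.50 (standard error 0.62, unadjusted p = 0.0326, adjusted p = 0.478 from edgeR) rests on 15 counts in the 4 Rax-SmoCKO libraries together and on 42 in control, of which 24 were in control replicate 2, the library rich in lens genes. Whether those counts came from lens was not tested, and Syn2 also overlaps Timp4 on the opposite strand. The gene passed the minimum of counts in 10 of the 17 alternative fits and had an unadjusted p under 0.05 in 6 of these.

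**Figure D2:**
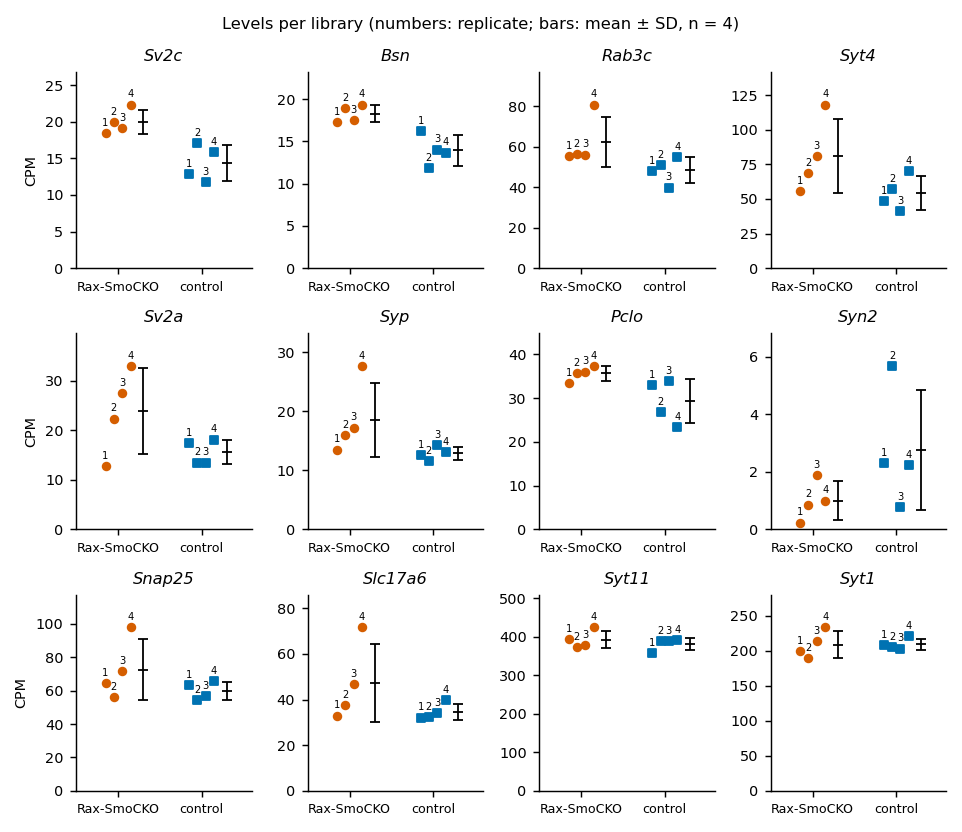
CPM of 12 of the genes (y axis, from 0) in the 4 Rax-SmoCKO (circles) and 4 control (squares) libraries, with the replicate number above each point and the mean ± SD beside each group. The groups are separate for Sv2c, Bsn and Rab3c, and Rax-SmoCKO replicate 4 is the highest point in 11 of the 12 panels, all but that of Syn2.

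The transporter Slc17a6 (VGLUT2) fills vesicles with glutamate and is the form used by RGCs, and Slc32a1 (VGAT) fills those of GABA and glycine neurons. Slc17a6 had 32.9, 37.6, 46.8 and 71.7 CPM in Rax-SmoCKO, against 32.0, 32.2, 33.9 and 39.9 CPM in control. Only replicates 3 and 4 of Rax-SmoCKO lay above all control libraries. The fitted log2 fold change was 0.43 (standard error 0.20, unadjusted p = 0.0517 from edgeR), and 0.18 without Rax-SmoCKO replicate 4. Slc32a1, at 3.34 CPM in Rax-SmoCKO and 3.23 CPM in control, had a value of -0.01 (standard error 0.34), and -0.39 without that library. The difference between the glutamate and the GABA transporter was not tested.

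Genes of the active zone and the Rab3 proteins, small GTPases that bring vesicles to it, were all above 0 (8 of 8, median 0.32). Of all genes tested, 50.04% were above 0. Bsn, Pclo and Rab3c, 3 of the 8, had an unadjusted edgeR p under 0.05, where 4.89% of all genes tested stood on the higher side. Without Rax-SmoCKO replicate 4, 7 of the 8 were above 0, and Bsn alone kept a p under 0.05. Bsn encodes Bassoon, a giant scaffold of the presynaptic active zone, on chromosome 9 from 108096022 to 108190384. Bsn had 17.3, 18.9, 17.5 and 19.3 CPM in Rax-SmoCKO, against 16.2, 11.8, 14.0 and 13.7 CPM in control. The groups did not overlap, and the Rax-SmoCKO values lay closer together than the control values. The means were 18.3 ± 1.02 CPM in Rax-SmoCKO and 13.9 ± 1.78 CPM in control (SD, n = 4 each), and the fitted log2 ratio was 0.40 (standard error 0.14, unadjusted p = 0.0135, adjusted p = 0.398 from edgeR), and 0.37 without Rax-SmoCKO replicate 4. Pclo encodes Piccolo, the large relative of Bassoon at the same site, and had 33.4, 35.7, 36.1 and 37.3 CPM in Rax-SmoCKO, against 33.02, 26.7, 33.9 and 23.4 CPM in control. Replicate 1 of Rax-SmoCKO lay just below the highest control library and the other 3 lay above it (log2 fold change 0.28, unadjusted p = 0.0325 from edgeR, and 0.26 without Rax-SmoCKO replicate 4). The values of Bsn and Pclo moved little when that library was left out, unlike those of Syt4, Syp and Slc17a6. Other libraries moved them more. Pclo was at 0.19 without control replicate 4 (unadjusted p = 0.105 from edgeR). Bsn was at 0.30 without control replicate 2 and Rax-SmoCKO replicate 2 together (unadjusted p = 0.0923 from edgeR).

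Rab3c had 55.4, 56.3, 56.0 and 80.7 CPM in Rax-SmoCKO, against 47.9, 50.9, 39.8 and 54.6 CPM in control, and lies on chromosome 13 from 110054187 to 110280996. All 4 Rax-SmoCKO libraries were above control, 3 of them by a small margin over control replicate 4. The fitted log2 fold change was 0.35 with a standard error of 0.13 (unadjusted p = 0.0194, adjusted p = 0.437 from edgeR), and 0.21 without Rax-SmoCKO replicate 4. Rab3a, the main Rab3 of synaptic vesicles in brain, was at 0.15, and 0.033 without that library, and its relative Rab3b at 0.27. Rims2, a scaffold that ties Rab3 on the vesicle to the active zone, had 67.1, 62.6, 64.6 and 93.0 CPM in Rax-SmoCKO, against 57.1, 60.6, 75.2 and 67.7 CPM in control. Its log2 fold change of 0.13 (standard error 0.13) was -0.013 without Rax-SmoCKO replicate 4. Its relative Rims1 was at 0.37, and 0.13 without that library. Unc13a, the Munc13 protein that primes docked vesicles, averaged 10.9 CPM in Rax-SmoCKO and 7.74 CPM in control (0.47, unadjusted p = 0.0559 from edgeR). Its 3′ end overlaps that of Colgalt1 on the opposite strand.

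The granins are the soluble cargo of dense core vesicles, which carry neuropeptides and hormones. All 5 genes of this subgroup were above 0 (median 0.20), with 0 at an unadjusted edgeR p under 0.05. Of all genes tested, 4.89% stood at that p on the higher side. Scg3, the granin that binds the vesicle membrane, was the most abundant, with 110.4, 105.8, 109 and 143.7 CPM in Rax-SmoCKO, against 93.8, 110.8, 99.7 and 121 CPM in control. The groups overlapped, and the log2 fold change of 0.14 was 0.026 without Rax-SmoCKO replicate 4. Sncg, gamma-synuclein, a small protein abundant in RGCs and their axons, averaged 115.7 CPM in Rax-SmoCKO and 90.2 CPM in control (0.35, and 0.17 without Rax-SmoCKO replicate 4). Chga (chromogranin A) and Chgb were at 0.52 (unadjusted p = 0.0609 from edgeR) and 0.20, or 0.36 and 0.11 without that library, and Scg2 at 0.07 with 6 to 19 counts in Rax-SmoCKO libraries and 11 to 19 in control libraries.

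**Figure D3:**
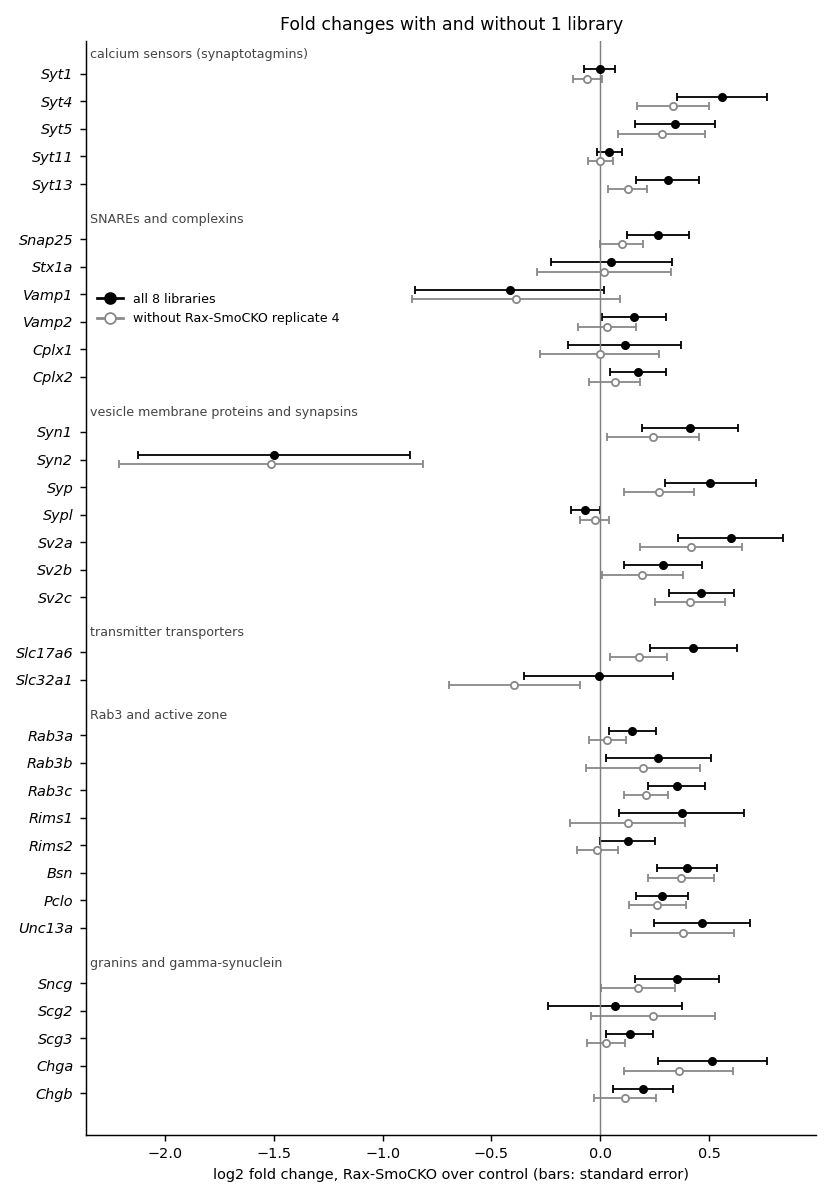
Log2 fold change of Rax-SmoCKO over control from edgeR (x axis) for each of the 33 genes, with all 8 libraries (filled) and without Rax-SmoCKO replicate 4 (open). Bars are the standard error. With all libraries 28 genes lie right of 0 and without that library 26, with medians of 0.27 and 0.13.

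Summed over the 33 genes, the tags came to 1563, 1577, 1714 and 2101 CPM in Rax-SmoCKO, against 1486, 1536, 1466 and 1664 CPM in control. The sums of Rax-SmoCKO replicates 3 and 4 lay above all control sums, and those of replicates 1 and 2 lay below the sum of control replicate 4. Markers of RGCs were also above 0 for the most part. The list also holds genes of neurons in general, such as Tubb3, Stmn2, Dcx, Elavl3 and Elavl4, so its sum is not particular to RGCs. The sum of 25 RGC markers, none of which is among the 33 genes, was 8688, 7903, 8493 and 11089 CPM in Rax-SmoCKO and 7033, 7112, 7348 and 8302 CPM in control. Of 23 tested markers 21 were above 0, with a median log2 fold change of 0.29. With an unadjusted edgeR p under 0.05, 16 were higher, where 4.89% of all genes tested stood. The marker lists were also chosen with earlier results of these data known, so these counts are a description only. The highest library of each group was replicate 4 both for the vesicle genes and for the RGC markers. For each 100 CPM of RGC markers there were 18.0, 20.0, 20.2 and 18.9 CPM of vesicle genes in Rax-SmoCKO and 21.1, 21.6, 19.9 and 20.0 in control. Relative to RGC markers the vesicle genes thus stood at 18.0 to 20.2 in Rax-SmoCKO, within or below the control range of 19.9 to 21.6. In bulk tissue, a change in the number of cells of a type cannot be told apart from a change in RNA per cell, and the part of RGC number in these values was not tested.

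**Figure D4:**
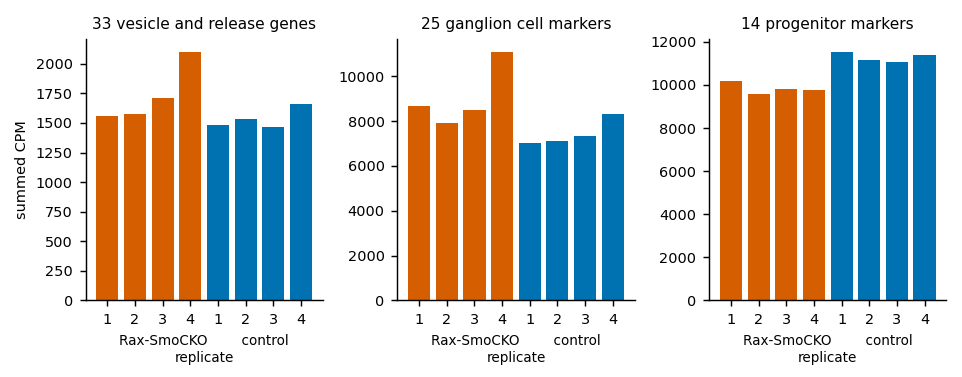
Summed CPM in each library (y axis, from 0; x axis, replicate) of the 33 vesicle and release genes, of 25 RGC markers and of 14 retinal progenitor markers, with Rax-SmoCKO bars left of control bars. Rax-SmoCKO replicate 4 has the highest bar in the first and second panels, and in the third all 4 Rax-SmoCKO bars, at 9584 to 10202 CPM, are below the control bars, at 11070 to 11533 CPM.

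Of the progenitor markers 13 of 14 were below 0. By an unadjusted edgeR p under 0.05, 7 were lower, where 4.61% of all genes tested stood. Ccnd1 was lower after adjustment, a threshold passed by 0.095% of all genes tested. The part of progenitors in the values of the vesicle genes was not tested either. Markers of peripheral and neuroendocrine neurons summed to 8.88 to 10.004 CPM in Rax-SmoCKO, against 11.7 to 28.4 CPM in control, and of the 11 markers 3 could be tested and 2 were at 0 in all libraries. Amacrine and horizontal cell markers summed to 1023 to 1338 CPM in Rax-SmoCKO, against 1184 to 1373 in control. Photoreceptor precursor markers summed to 484.5 to 682.6 CPM in Rax-SmoCKO, against 449.9 to 553.7 in control, again highest in Rax-SmoCKO replicate 4.

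A wider list of 135 further genes of the vesicle cycle was read for comparison, of which 134 were in the table and 115 could be tested. Of these, 83 were above 0 with a median of 0.11, 16 stood higher and 1 lower with an unadjusted edgeR p under 0.05 (4.89% and 4.61% of all genes tested), 7 did not overlap on the higher side and 1 on the lower (2.7% and 2.99% of all genes tested), and 0 passed after adjustment (0.095% of all genes tested). In DESeq2, which called 57 of the 14730 genes against 14 in edgeR, 2 passed, Slc18a2 and Scg5. In limma-voom, which called 16, 0 passed. Without Rax-SmoCKO replicate 2 the count with an unadjusted p under 0.05 was 29 in place of 17, and the share of all genes was not counted in that fit. By group, the median was 0.13 for other synaptotagmins, 0.03 for other SNAREs and SNARE handling, 0.30 for other vesicle membrane proteins, 0.12 for other active zone and Rab genes, 0.10 for vesicle recycling and 0.33 for dense core vesicle and synuclein genes. As among the 33 genes, the SNARE group had the lowest median of its list.

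Slc18a2 (VMAT2) loads monoamines into vesicles and Scg5 encodes the chaperone 7B2 of the prohormone convertase Pcsk2. Slc18a2 had 42.65, 33.5, 33.4 and 48.0 CPM in Rax-SmoCKO, against 20.5, 20.6, 21.9 and 25.9 CPM in control, with a wide gap between the groups. Its log2 fold change of 0.82 had a standard error of 0.14 (adjusted p = 0.0552 from edgeR, and 0.000855 from DESeq2). Scg5 had 87.4, 78.1, 57.9 and 100.04 CPM in Rax-SmoCKO, against 49.5, 43.3, 49.4 and 50.7 CPM in control, also without overlap, and its log2 fold change of 0.74 had a standard error of 0.14 (adjusted p = 0.0791 from edgeR, and 0.000336 from DESeq2). For both genes the call depended on the tool, and on single libraries. The adjusted p of Slc18a2 from edgeR was 0.0297 without Rax-SmoCKO replicate 2 and 0.0439 without replicate 3, that of Scg5 was 0.00313 without replicate 3, and neither passed with any other library left out. Without Rax-SmoCKO replicate 4 the fold changes were 0.72 and 0.63. The enzymes that Scg5 acts beside were Pcsk2, at 33.5 ± 6.03 CPM in Rax-SmoCKO and 22.7 ± 5.29 CPM in control (SD, n = 4 each; log2 fold change 0.56), and Cpe, the carboxypeptidase that trims peptides after Pcsk2, at 218.3 ± 14.0 CPM in Rax-SmoCKO and 189.6 ± 5.15 CPM in control (0.20). Cpe did not overlap between the groups.

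Of the other wider genes with a small p, Erc1, an active zone scaffold that is also found outside neurons, averaged 118.8 ± 5.10 CPM in Rax-SmoCKO and 105.2 ± 2.82 CPM in control (SD, n = 4 each; log2 fold change 0.18, adjusted p = 0.388 from edgeR), without overlap. Rab27a, a GTPase of secretory granules and of the melanosomes of pigment cells, had 4.03, 14.0, 15.1 and 6.34 CPM in Rax-SmoCKO, against 4.29, 0.947, 4.33 and 6.13 CPM in control. It was high in Rax-SmoCKO replicates 2 and 3 only, and those 2 libraries also had the most pigment epithelium markers, 450.7 and 679.2 summed CPM, against 211.6 and 121.0 in the other Rax-SmoCKO libraries and 88.3 to 302.5 in control. Their part in the value of Rab27a (1.36, adjusted p = 0.406) was not tested. Doc2a, a calcium sensor of vesicle release, was the 1 gene on the lower side, at 3.79 ± 1.12 CPM in Rax-SmoCKO and 7.42 ± 1.88 CPM in control (SD, n = 4 each; -0.96, adjusted p = 0.305). Its 3′ end overlaps Ino80e on the opposite strand.

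**Figure D5:**
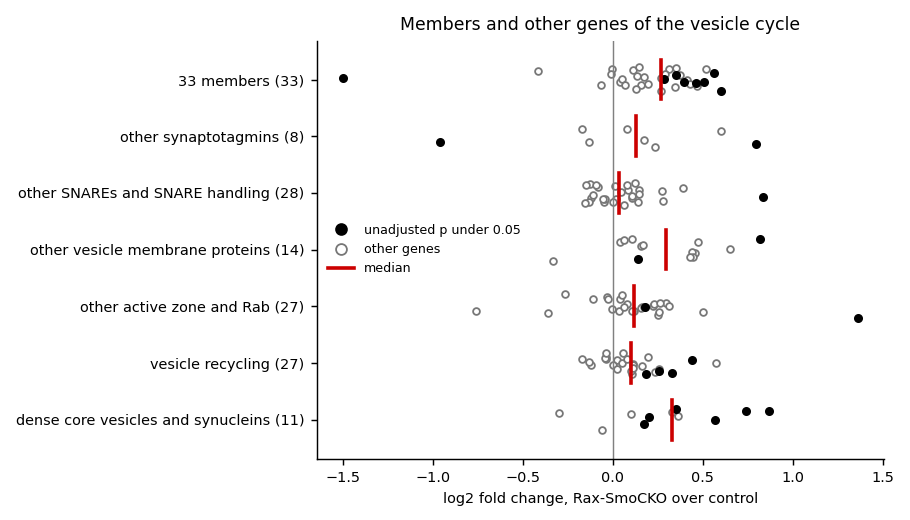
Log2 fold change of Rax-SmoCKO over control from edgeR (x axis) for the 33 members and for 115 other genes of the vesicle cycle in 6 groups (y axis, number of genes in brackets). Filled points have an unadjusted p under 0.05, and the bar is the median of each group, 0.27 for the members and 0.03 to 0.33 for the others.

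Reads shared between genes limit a few of these values. By GENCODE M21, 18 of the 33 genes overlap a gene on the opposite strand, and in 5 of them, Syn1, Syp, Rab3a, Rab3b and Unc13a, the overlap covers the 3′ end, from which the tags come. The strand setting of the counting was not found in the study's text or labels, so for these genes the reads of both partners may be mixed.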

How the data were processed

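Libraries from retinal RNA of 4 Rax-SmoCKO and 4 control samples were made with a QuantSeq FWD kit that adds molecular identifiers. After trimming and alignment to the mouse reference, the authors used featureCounts with Ensembl genes, and the deposited counts are whole numbers without scaling. STAR 2.7.0e and limma are the tools named in the submitters' processing notes, beside the builds mm10, GRCm38 and GRCh38. Neither the collapsing of identifiers nor the strand setting is stated. The deposited mean column of each group was not used. Groups came from titles and genotypes. Totals were 3017480 to 4615667 counts, and libraries of a group differed by more than sampling noise in each pair (chi-square over degrees of freedom 2.3 to 10.9).

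Counts were compared with edgeR 4.0.16 in R 4.3.3 (TMM scaling, quasi-likelihood fit on group, at least 5 counts in at least 4 libraries, Benjamini-Hochberg adjustment over 14730 genes), and the script was tested on simulated data. Standard errors are the absolute log2 fold change over the square root of F. Rows without a symbol (525, or 0.094% of counts) kept their identifiers. Alternatives, 17 in all, were DESeq2 size factors, library size alone, DESeq2 1.42.0, voom of limma 3.58.1, at least 10 counts, all genes with a count, replicate number as a block, each library left out, and pairs of libraries rich in lens or Y-linked counts left out.

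The members and the gene lists were chosen with earlier results of these data known. Values in every library are given for members with an unadjusted p under 0.05, for those whose groups do not overlap and for the most abundant of each subgroup, and for Syt1, which was chosen after its values were seen. Of the wider list the 8 genes with the smallest p are named, apart from a result that is not reported here. Gene positions and overlaps are from GENCODE M21 on GRCm38, and start regions from RefSeq. Pictures were drawn with matplotlib 3.10.9.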

Additional observations from a re-analysis of the deposited data

Results flagged for a closer look

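In 4 of the 30 groups of 4 libraries checked over the named genes and sums, 1 library lay far from the other 3 for its group. Chance gives about 1 in 20 for a single group. The 30 groups come from the same 8 libraries and are not independent, so their count was not tested against that rate. Rax-SmoCKO replicate 4 was the library in question for Rab3c (80.7 CPM, others 55.4 to 56.3), Rims2 (93.0 CPM, others 62.6 to 67.1) and Scg3 (143.7 CPM, others 105.8 to 110.4). For Syt11 it was control replicate 1, which was low (357.6 CPM, others 387.9 to 390.9).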

How the results depend on the processing

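With no filter on low counts, where calls over all genes numbered 289 of 27242 in place of 14 of 14730, 1 member, Syt4, passed the adjusted threshold, 12 members were higher at an unadjusted p under 0.05, and of the wider list 5 passed and 28 had an unadjusted p under 0.05. In other settings 0 members passed. Library size alone gave 1 wider gene past the threshold (15 calls over all 14730 genes tested) and DESeq2 2 (57 calls over all genes). A minimum of 10 counts gave 1 (15 calls over 13032 genes). Leaving out the lens-rich libraries gave 1 (17 calls over 14133 genes) and those with Y-linked counts 2 (17 calls over 14177 genes). Syn2 was not counted as lower (0 members) in limma-voom, with a minimum of 10 counts, or without either pair. Members whose groups do not overlap, in either direction, numbered 5 without the lens-rich pair and 6 without the Y-linked pair. Groups separate more easily with fewer libraries. The share of all genes without overlap was not counted here or with single libraries left out. Leaving out each library in turn gave 2 to 13 members higher and 0 to 1 lower at an unadjusted p under 0.05, and 3 to 7 without overlap. Wider genes past the threshold then numbered 0 to 2, beside 12 to 19 calls over all genes. Those at an unadjusted p under 0.05 numbered 12 to 29, and the median over the members was 0.13 to 0.32. With single libraries left out, the value of Rims2 was between -0.013, without Rax-SmoCKO replicate 4, and 0.20, without control replicate 3, and it was 0.29 without the Y-linked pair. The deviations of same-numbered libraries correlated at 0.0979, 0.249, -0.0551 and 0.0479, the second being the highest of all combinations. As not every pair was over 0.1, the numbers were not taken to pair the samples. With the replicate block 13 members were higher and 2 wider genes passed, beside 36 calls over all genes. For the counts at an unadjusted p under 0.05 in this section, the share of all genes in the same setting was not counted. Genes with few counts, such as Syn2 and Vamp1, limit what this depth can show.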
